A study of Mus musculus with 10 samples.

Results

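The Fc gamma receptors are the cell surface receptors through which macrophages bind the constant part of IgG antibodies. The genes described are Fcgr1, Fcgr3, Fcgr4, Fcgr2b and Fcer1g, 5 of the 13809 genes in the table, taken by name for their known roles. All 5 passed the filter on low values. They were measured by RNA sequencing in 10 libraries of C57BL/6 mouse bone marrow macrophages, from animals aged 12 weeks. The resident macrophages, labelled CD163-positive, are the ferromagnetic fraction of marrow, caught on a magnetic column with no staining step. Bone marrow derived macrophages (BMDM), labelled CD163-negative, were grown from the cells that ran through that column, with 20% L929 cell supernatant, for 6 days by the protocol and 7 days by the titles. The groups are resident macrophages given 1 µg/ml lipopolysaccharide (LPS) for 4 h (n = 3), untreated resident macrophages (n = 3), BMDM given the same LPS treatment (n = 2) and untreated BMDM (n = 2). Since the labels name no animal or culture for a replicate, the p-values speak of the spread among libraries, and this may be technical.

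Fcgr1, Fcgr3 and Fcgr4 encode activating receptors. They signal through the common gamma chain, encoded by Fcer1g, whose immunoreceptor tyrosine-based activation motif (ITAM) is phosphorylated by Src family kinases and then binds the kinase Syk. Fcgr2b encodes the only inhibitory member, which carries an inhibitory motif (ITIM) and recruits the phosphatase SHIP1. In macrophages the balance between the activating receptors and Fcgr2b sets how strongly immune complexes trigger phagocytosis and cytokine release, and LPS and interferon gamma are known to shift it.

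Values are normalized reads as deposited, changes are log2 ± SE on the scale of the value plus 1, and a gene is called at a Benjamini-Hochberg adjusted p under 0.05 in limma across 13755 genes. Libraries held 27.1 to 37.7 M recovered reads, and the lowest value of a member in any library was 662 normalized reads. Replicate 1 of both resident groups stood apart. Ddx3y, which is Y-linked, had 1975 normalized reads in LPS-treated and 1856 in untreated replicate 1. It was at the floor of 1 in the other 8 libraries. Xist, a transcript of the inactive X chromosome, had 2172 and 1651 in this pair of libraries, against 7873 to 13871 in the other 8. The changes of the members in resident macrophages and the summed ratio are therefore also given without this pair, and all other values use every library. As a check of the labels, macrophage markers were present in every group: the summed level of 12 markers was 245384 to 320530 in LPS-treated resident, 279591 to 410343 in untreated resident, 529975 to 558699 in LPS-treated BMDM and 577752 to 598997 in untreated BMDM libraries. Lyz2 alone averaged 340818 in LPS-treated and 383760 in untreated BMDM, and 51303 and 57549 in LPS-treated and untreated resident libraries. Of the 12, 5 were called higher and 5 lower in untreated resident libraries than in untreated BMDM, so the sum does not compare macrophage content between origins. Cd163 had 5175 ± 1194 and 7503 ± 2867 normalized reads in LPS-treated and untreated resident libraries (SD, n = 3 each), against 14.6 ± 0.357 and 47.9 ± 8.48 in LPS-treated and untreated BMDM (SD, n = 2 each). The resident fraction also carried other marrow cells. The summed level of 13 neutrophil markers was 339628 to 378488 in LPS-treated and 219846 to 391088 in untreated resident libraries, against 6254 to 6546 in LPS-treated and 2575 to 2683 in untreated BMDM, where Ly6g was at the floor. The summed level of 10 B cell markers was 5035 to 7189 in LPS-treated and 3984 to 7997 in untreated resident libraries, against 376 to 382 and 565 to 577 in LPS-treated and untreated BMDM. Neutrophils express Fcgr3 and Fcgr4, and B cells express Fcgr2b, so the part of these cells in every difference between the origins was not tested, and fewer cells of a type cannot be told apart from less RNA per cell in such bulk libraries.

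Sequence bears on the receptors in 2 ways. The first is that Fcgr2b and Fcgr3 are near copies over the part that encodes their antibody-binding domains. The coding sequences of transcripts Fcgr2b-204 (1020 bases) and Fcgr3-201 (801 bases) align over 509 bases, of which 491, or 96.5%, are identical. The longest identical run is 129 bases, lies at chr1:170966674-170968081 in Fcgr2b and chr1:171054167-171057792 in Fcgr3 (GRCm38, minus strand, across an intron in each), and is shown because a read inside it matches both genes equally:
shared by Fcgr2b and Fcgr3: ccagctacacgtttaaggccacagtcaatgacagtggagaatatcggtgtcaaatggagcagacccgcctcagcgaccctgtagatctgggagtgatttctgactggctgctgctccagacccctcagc
Of 50-base windows of its transcripts, 9.58% of Fcgr3 and 2.92% of Fcgr2b occur in the other gene, and 0 of those of Fcgr1, Fcgr4 and Fcer1g occur in any other gene. How the authors treated reads with several matches is not given in the sources used here, so the levels of Fcgr2b and Fcgr3 are uncertain by the reads that could be split. The strand of the library is not given either, and the antisense gene Gm38204 overlaps exons of Fcgr2b, so its reads could be counted there.

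The second is the promoters of the receptors whose LPS response differed. The 250 bases before the RefSeq start (GRCm38.p6) follow, 5′ to 3′ on the strand of the gene, for Fcgr1 at chr3:96293970-96294219 (minus strand), Fcgr3 at chr1:171059404-171059653 (minus strand), Fcgr4 at chr1:171018676-171018925 (plus strand) and Fcgr2b at chr1:170976072-170976321 (minus strand). Capitals mark matches to any of 5 motifs searched on both strands.
Fcgr1: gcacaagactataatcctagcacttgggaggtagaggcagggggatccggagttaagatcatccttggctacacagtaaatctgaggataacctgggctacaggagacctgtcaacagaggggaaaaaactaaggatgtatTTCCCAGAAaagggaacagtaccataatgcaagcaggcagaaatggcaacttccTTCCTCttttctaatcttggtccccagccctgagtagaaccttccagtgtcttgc
Fcgr3: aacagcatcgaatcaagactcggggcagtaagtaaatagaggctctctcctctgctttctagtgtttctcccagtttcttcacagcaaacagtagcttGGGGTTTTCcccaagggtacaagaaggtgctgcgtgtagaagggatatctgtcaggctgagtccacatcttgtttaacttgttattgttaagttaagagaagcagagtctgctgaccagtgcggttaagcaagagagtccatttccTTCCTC
Fcgr4: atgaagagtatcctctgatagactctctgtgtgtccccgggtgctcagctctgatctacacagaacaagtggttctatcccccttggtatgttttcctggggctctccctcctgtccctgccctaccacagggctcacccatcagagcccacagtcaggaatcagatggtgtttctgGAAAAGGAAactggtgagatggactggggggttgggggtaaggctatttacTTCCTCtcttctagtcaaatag
Fcgr2b: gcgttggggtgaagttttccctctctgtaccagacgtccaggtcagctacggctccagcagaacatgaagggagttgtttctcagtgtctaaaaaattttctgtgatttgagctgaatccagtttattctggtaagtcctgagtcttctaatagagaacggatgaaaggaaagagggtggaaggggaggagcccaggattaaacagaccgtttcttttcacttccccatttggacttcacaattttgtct
The motifs were TTCNNNGAA for STAT factors, present in 7.02% of 32851 RefSeq windows of this length, GAAANNGAA for interferon regulatory factors (7.13%), GAGGAA for PU.1 (23.3%), GGGNNTTTC for NF-kB (3.72%) and TTGCNNAAT for C/EBP factors (2.11%). Fcgr1 held TTCCCAGAA at -109 to -101 from its start and GAGGAA, read on the reverse strand as TTCCTC, at -55 to -50. Fcgr4 held GAAAAGGAA at -73 to -65 and TTCCTC at -22 to -17. Fcgr3 held GGGGTTTTC at -152 to -144 and TTCCTC at -6 to -1. No 2 of these matches overlap, and the windows of Fcgr2b and Fcer1g held none. A match is a description of the sequence and not a binding site.

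The LPS response of the receptors was asked within each origin. In resident macrophages LPS changed 3 of the 5 genes: Fcgr2b rose 2.04-fold, Fcgr4 rose 1.31-fold, and Fcgr1 fell to 0.675 of its untreated level. Neither Fcgr3 nor the gamma chain gene Fcer1g was called. In BMDM all 5 genes rose on the deposited scale, Fcgr2b 17.5-fold, Fcgr4 8.36-fold, Fcgr1 4.14-fold, Fcer1g 1.71-fold and Fcgr3 1.42-fold, but Fcgr3 turned to -0.11 on the log2 scale with equal library totals and to -0.39 with quantile normalization, and Fcer1g to -0.06 with quantile normalization. Of all tested genes, 12.9% were called for LPS in resident macrophages, 7.36% as higher and 5.57% as lower, and 57.8% in BMDM, 28.3% as higher and 29.5% as lower. The 3 of 5 members called in resident macrophages and 5 of 5 in BMDM are read against these shares. Treated and untreated libraries did not overlap for 27.1% of all genes in the resident and 84.4% in the BMDM comparison, which had 3 and 5 of the members.

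**Figure D1:**
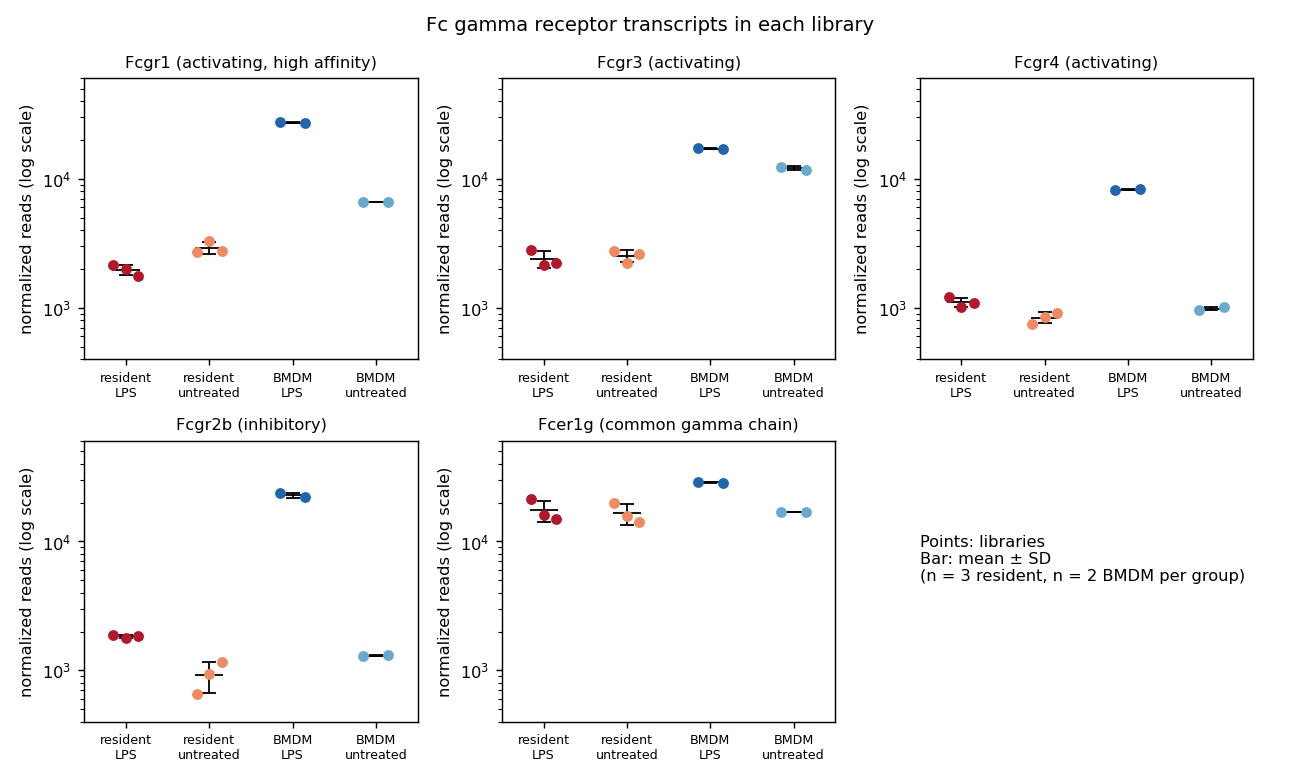
Normalized reads (log axis) of the 5 genes in each library; points are libraries, and bars are mean ± SD of the 4 groups. On this deposited scale LPS-treated BMDM stand above every other group for all 5 genes (for Fcer1g not with quantile normalization, and for Fcgr3 not with that, equal library totals or voom), and Fcgr1 of LPS-treated resident libraries (1771 to 2134) lies below that of untreated ones (2702 to 3279).

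Fcgr1 encodes the high-affinity receptor, CD64, which can bind single IgG molecules. It had 2134, 1998 and 1771 normalized reads in LPS-treated resident libraries, against 2702, 3279 and 2778 in untreated ones. The groups did not overlap, and Fcgr1 fell by 0.57 ± 0.09 (adjusted p = 0.00408 by limma, n = 3 each). In BMDM it had 27370.2 and 27071 normalized reads with LPS and 6567 and 6584 without. It rose by 2.05 ± 0.11 there (adjusted p = 1.04e-07 by limma), opposite to its direction in resident macrophages. In 23 other settings this rise was between 1.19 and 2.06. Untreated resident libraries were lower than untreated BMDM by 1.18 ± 0.10 on the log2 scale, 2.26-fold. After LPS the gap was 13.9-fold (-3.79 ± 0.10). Fcgr1 was thus ordered LPS-treated BMDM, untreated BMDM, untreated resident and LPS-treated resident, with no overlap between neighbours. Without replicate 1 of both resident groups its LPS change in resident macrophages was -0.68 (adjusted p = 0.00169 by limma). Of 8 monocyte markers, 3 also fell with LPS in the resident fraction and 1 rose (Nr4a1). Ccr2 had 112 ± 10.4 normalized reads with LPS and 277 ± 99.4 without, Cx3cr1 155 ± 30.1 and 348 ± 82.9, and F13a1 284 ± 61.8 and 656 ± 238 (SD, n = 3 each). Ly6c2 had 10565 ± 1425 with LPS and 7899 ± 2245 without, and was not called. In BMDM, Ccr2 had 200 ± 0.701 with LPS and 720 ± 65.2 without, and Cx3cr1 110 ± 1.47 and 1842 ± 25.4. F13a1 had 103 ± 21.5 and 66.2 ± 5.93 there (SD, n = 2 each). The summed level of the 8 monocyte markers was 20269 to 22176 in LPS-treated and 15020 to 19725 in untreated resident libraries. Of 12 macrophage markers, 0 were called with LPS in resident libraries. Their median log2 change was -0.26, from -0.63 for C1qa to -0.01 for Adgre1. The part of monocytes or of macrophage content in the fall of Fcgr1 was not tested.

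Fcgr3 encodes CD16, the low-affinity receptor that binds immune complexes of most mouse IgG subclasses. Its levels were 2819, 2154 and 2214 normalized reads in LPS-treated resident libraries, against 2770.0, 2219.9 and 2612 in untreated ones, and the groups overlapped. The change of -0.09 ± 0.11 was not called (adjusted p = 0.699 by limma), with a 95% interval from -0.34 to 0.17, and it was -0.14 without replicate 1 of both groups. In BMDM, Fcgr3 had 17263.5 and 17005 normalized reads with LPS and 12426.5 and 11798 without. This rise of 0.50 ± 0.14 (adjusted p = 0.0104 by limma) turned to -0.11 with equal library totals and to -0.39 with quantile normalization, and leaving out untreated replicate 2 or LPS replicate 1 ended the call (adjusted p = 0.0638 and 0.0555). Its level separated the origins: untreated resident libraries were 4.80-fold lower than untreated BMDM (-2.26 ± 0.13), and LPS-treated resident libraries 7.20-fold lower than LPS-treated BMDM (-2.85 ± 0.13).

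Fcgr4 encodes a receptor for complexes of IgG2a and IgG2b. It had 1202, 1009.9 and 1091 normalized reads in LPS-treated resident libraries, against 750.0, 849 and 915 in untreated ones. The groups did not overlap, and the gene rose by 0.39 ± 0.09 (adjusted p = 0.0189 by limma). That call was lost with equal library totals (0.27, adjusted p = 0.131) and in a fit of the resident libraries alone (adjusted p = 0.102), and it held without replicate 1 of both groups (0.25, adjusted p = 0.0309). LPS-treated BMDM had 8162 and 8321 normalized reads and untreated BMDM 965 and 1004, a rise of 3.06 ± 0.11 (adjusted p = 4.51e-09 by limma). Before LPS the origins were close, with a difference of -0.24 ± 0.10 that was not called (adjusted p = 0.0551, 95% interval -0.46 to -0.01). After LPS, resident libraries were 7.50-fold lower than BMDM (-2.91 ± 0.10). In the resident fraction 0 of 13 neutrophil markers rose with LPS and 2 fell (Mmp9 and Cxcr2). Their summed level was 339628 to 378488 with LPS and 219846 to 391088 without. The part of neutrophils in the resident rise of Fcgr4 was not tested.

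Fcgr2b encodes CD32B, the inhibitory receptor. Its normalized reads were 1884, 1794 and 1835 in LPS-treated resident libraries, against 662, 944 and 1159 in untreated ones. The untreated libraries differed more among themselves than the treated ones, but every treated library was above every untreated one. The rise was 1.03 ± 0.16 (adjusted p = 0.0034 by limma), and 0.79 without replicate 1 of both groups (adjusted p = 0.0011). BMDM had 23609 and 22151 normalized reads with LPS and 1293 and 1317 without. This rise of 4.13 ± 0.20 (adjusted p = 3.34e-08 by limma) was ranked 380 by size among the 13755 genes tested. Untreated resident libraries were 1.45-fold lower than untreated BMDM (-0.54 ± 0.18, adjusted p = 0.0198 by limma). The call was lost in 3 of 23 other settings, among them those without untreated BMDM replicate 1 or replicate 2. With LPS, resident libraries were 12.4-fold lower than BMDM (-3.64 ± 0.18). Fcgr2b was ordered LPS-treated BMDM, LPS-treated resident, untreated BMDM and untreated resident, with no overlap between neighbours. In the resident fraction 0 of 10 B cell markers rose with LPS and 1 fell, and the summed B cell level overlapped between the groups. Of 5 plasma cell markers, 2 rose: Prdm1 had 2175 ± 208 normalized reads with LPS and 1303 ± 165 without, and Irf4 2272 ± 122 and 1111 ± 31.5 (SD, n = 3 each). Sdc1, Jchain and Xbp1 were not called (-0.09 ± 0.29, 0.09 ± 0.45 and 0.09 ± 0.08). In BMDM, Prdm1 had 3252 ± 8.12 normalized reads with LPS and 611 ± 35.3 without, and Irf4 453 ± 45.5 and 61.6 ± 1.82 (SD, n = 2 each). The summed plasma cell level was 12083 to 14143 in LPS-treated and 9736 to 12040 in untreated resident libraries, and the part of B lineage cells in the rise of Fcgr2b was not tested.

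Fcer1g encodes the gamma chain, which also serves the high-affinity IgE receptor and several lectin receptors. It had 21269, 15905 and 15060.1 normalized reads in LPS-treated resident libraries, against 20004, 15777 and 14039.7 in untreated ones. These overlapped, with a change of 0.07 ± 0.15 (adjusted p = 0.84 by limma, 95% interval -0.27 to 0.41), and replicate 1 was the highest in each group; without this pair the change was 0.06. LPS-treated BMDM had 29049 and 28554 normalized reads and untreated BMDM 16891 and 16829.8. The rise of 0.77 ± 0.19 (adjusted p = 0.00509 by limma) was not called with equal library totals (0.16, adjusted p = 0.306) and was -0.06 with quantile normalization. Untreated resident libraries overlapped untreated BMDM, and their difference of -0.04 ± 0.17 (95% interval -0.42 to 0.34) was not called (adjusted p = 0.852 by limma). Across 23 other settings this difference ranged from -0.39 to 0.08, with a lowest adjusted p of 0.0118 by limma. With LPS, resident libraries were 1.67-fold lower than BMDM (-0.74 ± 0.17, adjusted p = 0.00287).

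Across the origins, 71.9% of all tested genes were called between untreated resident macrophages and untreated BMDM (32.6% as lower and 39.2% as higher in resident), and 71.3% between the LPS-treated groups (34.5% as lower and 36.7% as higher). Libraries of the origins did not overlap for 82.7% of all genes before LPS and 82.4% after it. Of the 5 members, 3 were lower in untreated resident macrophages (Fcgr1, Fcgr3 and Fcgr2b), and all 5 were lower in resident macrophages after LPS, and the same genes were called without replicate 1 of both resident groups, with -0.32 for untreated Fcgr2b. The difference of the LPS responses, resident minus BMDM, was called for 41.8% of all genes, 22.8% as lower and 19.0% as higher, and for all 5 members as lower. It was -3.10 ± 0.25 for Fcgr2b (adjusted p = 4.9e-06), -2.67 ± 0.14 for Fcgr4 (2.24e-07) and -2.62 ± 0.14 for Fcgr1 (2.91e-07), all by limma. For Fcer1g it was -0.71 ± 0.24 (adjusted p = 0.0395) and for Fcgr3 -0.59 ± 0.18 (0.0239). These last values lost the call or the sign in 11 and 9 of 22 other settings, and Fcgr3 was 0.25 with quantile normalization.

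**Figure D2:**
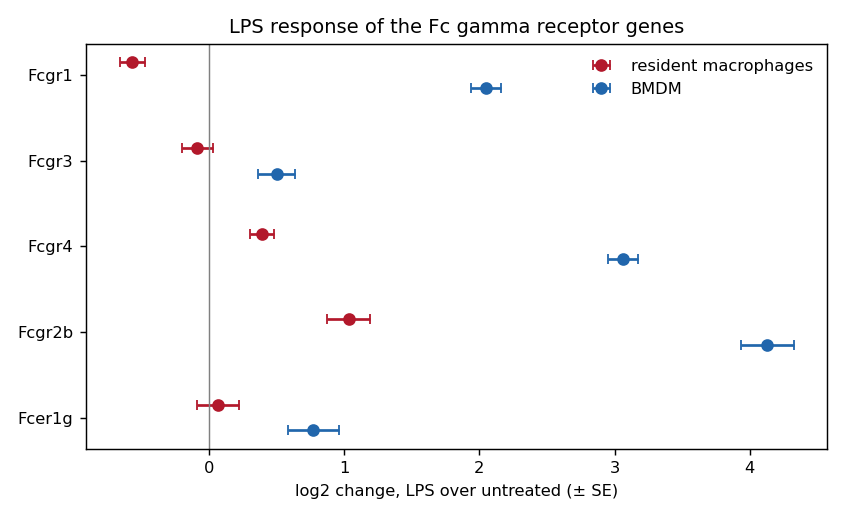
Log2 change of each gene, LPS over untreated, in resident macrophages and in BMDM; points are limma estimates and bars ± SE. Fcgr1 is the only one of the 5 genes with called changes of opposite sign, -0.57 in resident macrophages and 2.05 in BMDM.

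Levels of different genes were compared as reads per kb of exon, over 2589 bases for Fcgr1, 1736 for Fcgr3, 1256 for Fcgr4, 5790 for Fcgr2b and 874 for Fcer1g. The activating to inhibitory ratio was the summed reads per kb of Fcgr1, Fcgr3 and Fcgr4 over those of Fcgr2b. Resident libraries had ratios of 10.5, 9.09 and 8.92 with LPS (9.49 ± 0.845, SD, n = 3) and 28.3, 19.8 and 16.5 without (21.5 ± 6.10, SD, n = 3). BMDM had 6.63 and 7.03 with LPS (6.83 ± 0.283, SD, n = 2) and 46.9 and 44.6 without (45.7 ± 1.62, SD, n = 2). In neither origin did treated and untreated libraries overlap, and LPS-treated libraries had the lower ratio in both. As a combined score over chosen genes, the ratio is given with no p.

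On the log2 scale the ratio of LPS-treated resident libraries differed from untreated ones by -1.15 ± 0.20, 2.22-fold lower. In BMDM the log2 difference was -2.74 ± 0.24, 6.70-fold lower with LPS. Before LPS the resident ratio was 2.18-fold lower than that of BMDM (-1.12 ± 0.22), and after LPS it was 1.39-fold higher (0.47 ± 0.22). For this summed ratio the origins changed order: every untreated resident library was below every untreated BMDM library, and every LPS-treated resident library was above every LPS-treated BMDM library. Single receptors did not all show this: Fcgr1 alone over Fcgr2b differed between the origins by -0.16 ± 0.22 after LPS, and Fcgr4 alone over Fcgr2b by 0.30 ± 0.15 before LPS. The difference of the responses was 1.60 ± 0.31. Without replicate 1 of both resident groups the LPS difference in resident libraries was -1.004, and the differences between origins were -1.34 before and 0.40 after LPS. The ratio itself depends on the length used, and the 5790 bases of Fcgr2b are the union of exons over all its transcripts. With the longest coding transcript, which is 3544 bases for Fcgr2b, the mean ratios were 6.58, 14.9, 4.62 and 33.5 in LPS-treated resident, untreated resident, LPS-treated BMDM and untreated BMDM libraries, and without division by length 2.97, 7.19, 2.30 and 15.1.

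**Figure D3:**
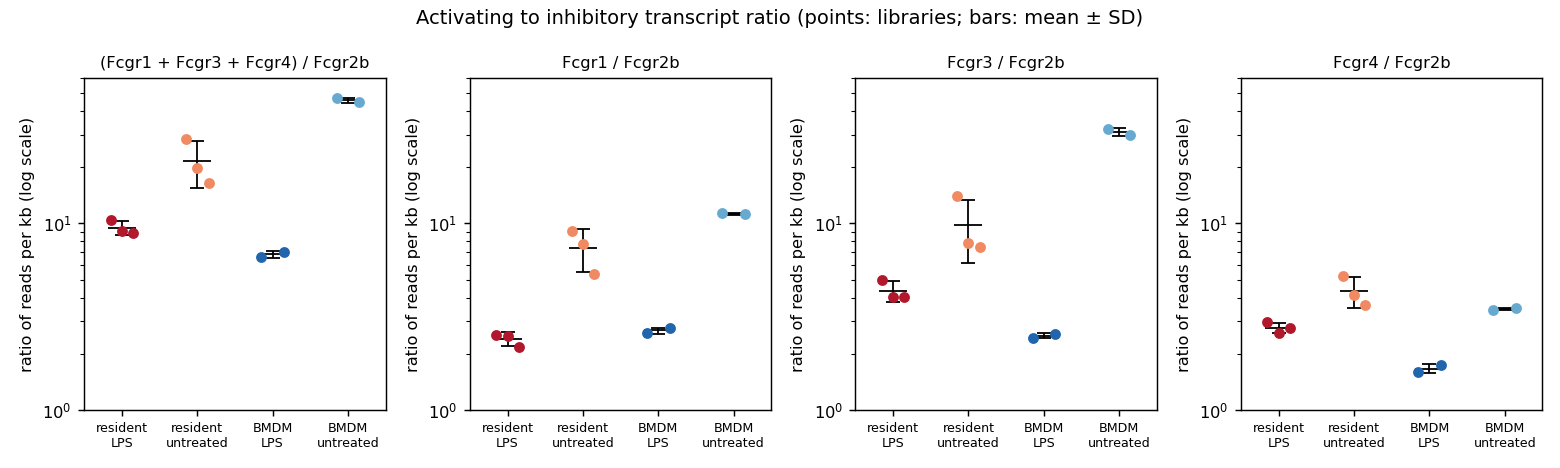
Ratio of reads per kb (log axis) of the summed activating receptors, and of each activating receptor, to Fcgr2b; points are libraries and bars mean ± SD. The summed ratio is lower with LPS in both origins (8.92 to 10.5 against 16.5 to 28.3 in resident libraries, 6.63 to 7.03 against 44.6 to 46.9 in BMDM).

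The activating receptors contributed unequally to the ratio. Fcgr1 over Fcgr2b was 2.39 ± 0.205 in LPS-treated and 7.42 ± 1.91 in untreated resident libraries, and 2.66 ± 0.0993 and 11.3 ± 0.128 in LPS-treated and untreated BMDM. The parts of this ratio moved differently: in resident macrophages Fcgr1 fell while Fcgr2b rose, and in BMDM both rose. Fcgr3 over Fcgr2b was 4.34 ± 0.564 in LPS-treated and 9.77 ± 3.63 in untreated resident libraries. In BMDM it was 2.50 ± 0.0860 with LPS and 31.0 ± 1.54 without, which is 12.4-fold lower and the widest shift of the 3. Fcgr4 over Fcgr2b was 2.76 ± 0.173 in LPS-treated and 4.34 ± 0.809 in untreated resident libraries, and 1.66 ± 0.0975 and 3.48 ± 0.0516 in LPS-treated and untreated BMDM.

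Of the summed reads per kb of the 4 receptors, Fcgr2b made up 9.57% ± 0.738 in LPS-treated and 4.65% ± 1.16 in untreated resident libraries, and 12.8% ± 0.462 and 2.14% ± 0.0743 in LPS-treated and untreated BMDM. Fcgr3 was the most abundant per length in untreated BMDM, with 65.6% and 66.98% in its libraries (mean 66.3%), and made up 31.9% ± 0.0556 with LPS, where Fcgr1 had 34.0% ± 0.0390. In resident libraries Fcgr3 led with 41.3% ± 2.02 with LPS and 42.8% ± 4.92 without. There Fcgr1 made up 22.8% ± 1.60 with LPS and 33.1% ± 3.79 without, and Fcgr4 26.3% ± 1.12 with LPS and 19.5% ± 1.53 without. The sum of the 4 receptors was 3334 ± 343 reads per kb in LPS-treated and 3414 ± 81.9 in untreated resident libraries, a log2 difference of -0.04 ± 0.07. In BMDM the sums were 30897 ± 276 with LPS and 10527 ± 226 without (1.55 ± 0.09). In resident libraries the make-up thus differed with LPS at nearly the same summed level, and in BMDM the sum was also 2.94-fold higher. Both hold for the deposited scale. There, normalized totals were 38.8 and 38.6 M in LPS-treated and 24.7 and 26.0 M in untreated BMDM libraries. The sums were not recomputed with equal library totals.

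**Figure D4:**
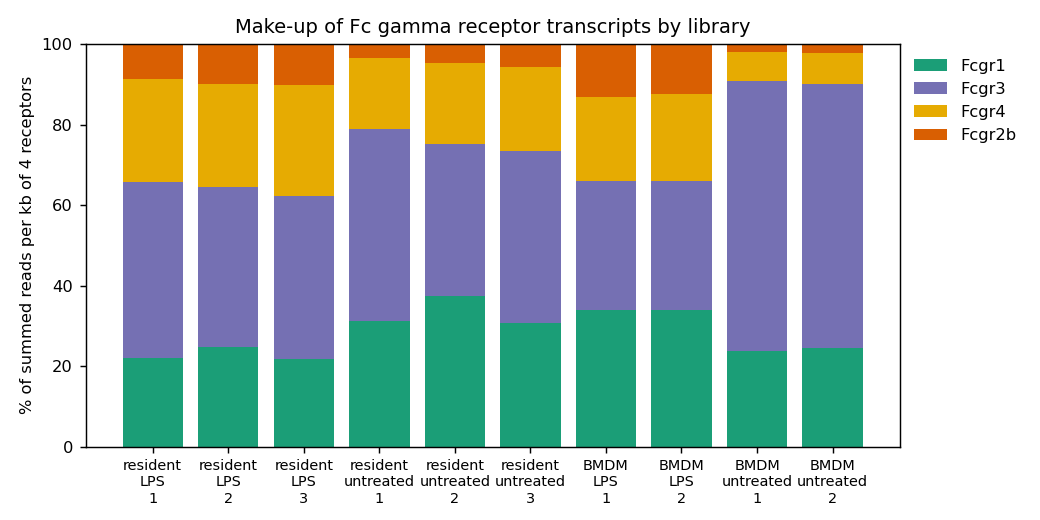
Percent of the summed reads per kb of Fcgr1, Fcgr3, Fcgr4 and Fcgr2b in each library. Fcgr2b takes a larger share with LPS in both origins (9.57% against 4.65% on average in resident libraries, 12.8% against 2.14% in BMDM), and Fcgr3 fills 66.3% of untreated BMDM.

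The gamma chain was more abundant per length than the summed activating receptors in every group. Fcer1g reads per kb over those of the 3 activating receptors were 6.57 ± 0.536 in LPS-treated and 5.84 ± 1.13 in untreated resident libraries, and 1.22 ± 0.0104 and 1.87 ± 0.0368 in LPS-treated and untreated BMDM. With LPS the resident ratio was 5.36-fold that of BMDM (2.42 ± 0.16), and without LPS 3.08-fold (1.62 ± 0.16). Markers of mast cells and basophils, in which the chain pairs with the IgE receptor, were summed with those of eosinophils. This summed level was 11223 to 12012 in LPS-treated and 9298 to 11091 in untreated resident libraries, against 968 to 1090.4 and 945 to 1123 in LPS-treated and untreated BMDM. In untreated resident libraries Prg2 and Ccr3 had 3092 ± 1046 and 3373 ± 1240 normalized reads. The IgE receptor genes Fcer1a and Ms4a2 had 28.5 ± 11.5 and 180 ± 38.2 there (SD, n = 3). Of the 12 markers in this sum, 11 were called higher and 1 lower in untreated resident libraries than in untreated BMDM. The lower one was the eosinophil marker Siglecf, with 112 ± 18.6 against 355 ± 68.4 (SD, n = 3 and n = 2). Megakaryocyte and platelet markers summed to 20752 to 54682 in LPS-treated and 15750 to 49933 in untreated resident libraries. In LPS-treated and untreated BMDM they summed to 1316 to 1523 and 1646 to 1705. The neutrophil markers given above were also higher in resident libraries. The part of all these cells in the resident level of Fcer1g was not tested.

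The kinases and adaptors that carry the ITAM signal were followed next. In resident macrophages 5 of 33 rose with LPS and 2 fell (15.2% and 6.06%, where 7.36% and 5.57% of all tested genes did; median 0.08, against 0.002). Malt1, a scaffold of NF-kB signalling, had 10005 ± 1183 normalized reads with LPS and 4425 ± 903 without (1.19 ± 0.14, adjusted p = 0.000768 by limma). The adaptor gene Lcp2 (SLP-76) rose by 0.48 ± 0.10, the phosphoinositide 3-kinase subunit gene Pik3r1 by 0.50 ± 0.10, and Nfam1, itself an ITAM receptor, fell by 0.71 ± 0.13. In BMDM 17 rose and 6 fell (51.5% and 18.2%, where 28.3% and 29.5% of all genes did; median 0.32, against -0.04). The lists that follow are read against the same shares of all genes. Src rose by 4.44 ± 0.17, with 15049 ± 38.5 normalized reads in LPS-treated and 691 ± 8.38 in untreated BMDM. Malt1 and Lcp2 rose by 4.07 ± 0.17 and 3.75 ± 0.12 in BMDM, and Nfam1 fell by 2.81 ± 0.16. Pik3r1 was not called there (0.06 ± 0.13). Syk, the kinase that the phosphorylated chain binds, had a change of 0.20 ± 0.12 in resident macrophages (adjusted p = 0.317 by limma) and rose by 1.48 ± 0.15 in BMDM. Untreated resident libraries had higher Lcp2 (3.81 ± 0.11), Src (3.39 ± 0.16) and Syk (1.77 ± 0.13) than untreated BMDM, and 21 of the 33 genes were higher there and 9 lower (63.6% and 27.3%, where 39.2% and 32.6% of all tested genes were).

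Among 23 tested phosphatases and inhibitory receptors that restrain Fc receptor signalling, 5 rose and 3 fell with LPS in resident macrophages (median 0.002), and 9 rose and 9 fell in BMDM (median 0.21). Inpp5d encodes SHIP1, the phosphatase that Fcgr2b recruits. It had 2816 ± 499 normalized reads in LPS-treated and 4368 ± 765 in untreated resident libraries, and fell by 0.64 ± 0.15 (adjusted p = 0.0198 by limma). In BMDM it fell by 2.75 ± 0.18, to 992 ± 60.7 with LPS, against 6680.3 ± 283 without. The transcripts of the inhibitory receptor and of its phosphatase thus moved in opposite directions in both origins. Siglece, which encodes a sialic acid binding inhibitory receptor, rose by 0.94 ± 0.12 in resident macrophages, as did Lilrb4a by 0.63 ± 0.12. Both also rose in BMDM, Siglece by 0.88 ± 0.14 and Lilrb4a by 1.29 ± 0.14. Pirb, a receptor that carries inhibitory motifs, rose by 1.49 ± 0.12 in BMDM and had 5375 ± 559 normalized reads in LPS-treated and 5368 ± 553 in untreated resident libraries.

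Of 25 tested receptors that pair with the gamma chain or with its relative DAP12, 4 rose and 0 fell with LPS in resident macrophages (median 0.06), and 9 rose and 6 fell in BMDM (median -0.22). Clec4e, which encodes the gamma chain partner Mincle, rose by 1.30 ± 0.15 in resident macrophages, with 22711 ± 5278 normalized reads with LPS and 9144 ± 1404 without. In BMDM it rose by 4.94 ± 0.19, with 63236 ± 2575 normalized reads with LPS and 2064 ± 39.4 without. Clec4d, its close relative, rose by 0.77 ± 0.18 in resident macrophages and by 0.64 ± 0.22 in BMDM. Trem2, which pairs with DAP12, had 756 ± 445 normalized reads in untreated resident libraries and 26349.5 ± 245 in untreated BMDM (-5.27 ± 0.43). Trem3 had 1083 ± 208 and 2.78 ± 2.52 in untreated resident libraries and untreated BMDM. The neutrophil markers given above were higher with it, a part that was not tested.

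Of 13 tested other Fc receptors and antibody-binding proteins, 3 rose and 2 fell with LPS in each origin, with medians of 0.31 in resident macrophages and -0.15 in BMDM. Trim21, a cytosolic antibody receptor, rose by 0.53 ± 0.09 in resident macrophages and by 4.07 ± 0.11 in BMDM. Fcgrt, which encodes the neonatal Fc receptor that recycles IgG, had 3734 ± 1157 normalized reads in LPS-treated and 6413 ± 1698 in untreated resident libraries and fell by 0.79 ± 0.21 (adjusted p = 0.0374 by limma). Between untreated groups 10 of the 13 were higher in resident macrophages and 2 lower (76.9% and 15.4%, where 39.2% and 32.6% of all tested genes were). Fcrla, a B cell gene, was higher by 4.88 ± 0.41, and the B cell markers given above were higher with it, a part that was not tested. Fcrls, a scavenger-type relative of the Fc receptors, stood at 10.0 ± 8.60 normalized reads in untreated resident libraries and 1209 ± 3.57 in untreated BMDM.

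Actin and membrane genes of the phagocytic cup were the next list. Of 40 tested, 3 rose and 2 fell with LPS in resident macrophages (median 0.08, range -0.57 to 0.32), shares near the 7.36% and 5.57% of all tested genes. In BMDM 18 rose and 9 fell (median 0.24). Between untreated origins 14 of the 40 were higher in resident macrophages and 18 lower (35% and 45%, against 39.2% and 32.6% of all tested genes). After LPS 10 were higher there and 23 lower (25% and 57.5%, against 36.7% and 34.5%). Vasp, which promotes actin filament growth, rose by 0.32 ± 0.09 in resident macrophages and by 1.92 ± 0.11 in BMDM. Wipf1, a partner of the actin regulator WASP, fell by 0.57 ± 0.07 in resident macrophages and by 0.96 ± 0.08 in BMDM.

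Transcription factors and cytokine receptors known to act on Fc receptor genes made up the last list. Of 25, 6 rose and 3 fell with LPS in resident macrophages (median 0.16), and 18 rose and 6 fell in BMDM (median 1.38, against -0.04 over all tested genes). Irf1 had 19022 ± 1464 normalized reads in LPS-treated and 12236 ± 1520 in untreated resident libraries (0.64 ± 0.10), and 26405 ± 799 and 1322 ± 4.00 in LPS-treated and untreated BMDM (4.32 ± 0.12). Jak2 rose by 0.80 ± 0.08 and 4.67 ± 0.10 in resident macrophages and BMDM. Cebpa fell in both origins (-1.20 ± 0.19 in resident macrophages and -3.62 ± 0.23 in BMDM). Spi1, which encodes PU.1, had a change of -0.06 ± 0.11 in resident macrophages (adjusted p = 0.803 by limma) and rose by 0.98 ± 0.13 in BMDM. The difference of responses was called lower in resident macrophages for 17 of the 25 and higher for 6 (68% and 24%, where 22.8% and 19.0% of all tested genes were).

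Likeness to a member was measured as the root mean square difference between log2 profiles over the 10 libraries, each centred on its own mean, among 12886 genes. The member profiles differed from each other: the closest pairs were Fcgr4 with Fcgr2b (0.50) and Fcgr1 with Fcgr3 (0.55), and the farthest was Fcgr2b with Fcer1g (1.44). The genes most like Fcgr1 were Slamf9 (0.19), Maf (0.21) and Zfp324 (0.27). Those most like Fcgr3 were Dab2 (0.14), Ids (0.17) and Pgam1 (0.18). Fcgr4 was followed most closely by Aldh1b1 (0.15), Tpbpa (0.20) and Ms4a6c (0.22), of which Tpbpa had 17.2 normalized reads in LPS-treated BMDM and was at the floor elsewhere. Nearest to Fcgr2b were H2-M2 (0.25), Cacnb3 (0.31) and Fnbp1l (0.37), the first of which is a class Ib histocompatibility gene with 263 ± 43.2 normalized reads in LPS-treated and 136 ± 11.6 in untreated resident libraries, and 3621 ± 140.3 and 191 ± 18.4 in LPS-treated and untreated BMDM. Fcer1g lay within 0.3 of 1359 genes, led by Anxa5 (0.06), Ube2w (0.07) and Ctsz (0.09), since its own profile spans little. Only 1 gene lay within 0.3 of Fcgr2b and 3 within 0.3 of Fcgr1.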

How the data were processed

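The deposited table holds signal values, gene reads scaled by the authors with a factor for each library: values under 1000 reads were whole multiples of 1 step per library (0.892 to 1.35) within 0.02 in 100% of cases, above a floor of 1. Reads were aligned with HISAT 0.1.7 and build mm10 was used, per the submitters' processing notes. Neither the counting program nor the annotation is given in the sources used here.

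All 10 libraries and 13809 genes were read, and groups follow the labels. A gene needed a value of 10 in 2 libraries (13755 kept, 54 left out). The fit used limma 3.58.1 (R 4.3.3) on log2(value + 1). A single model with 4 groups and a variance trend (6 residual degrees of freedom) gave 5 contrasts, with 2-sided p-values adjusted by Benjamini and Hochberg's method over all genes. The fit was tested on simulated data. Exon lengths and positions come from GENCODE M 21 (GRCm38), and promoters from RefSeq; all 5 genes matched by symbol. Ratios were taken per library, with an SE from the spread pooled over the 4 groups.

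The members, the 6 gene lists and the marker lists were chosen with earlier results of these data known. Named from each list were up to 3 called rises and 3 called falls per contrast with a mean of at least 20 in the higher group, and the 3 genes most like each member. Syk, Spi1 and the resident values of Pirb were added for their known roles, after values were seen. Some genes of the lists are not reported here by name. Python 3.11.15 and matplotlib 3.10.9 drew the figures. Alternatives were other pseudocounts, filters, scalings, variance settings and sample sets, voom on recovered reads, a replicate block, and other forms of the ratio.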

Additional observations from a re-analysis of the deposited data

Results flagged for a closer look

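The LPS response of all 5 genes differed between the origins by a test of the difference itself (resident minus BMDM, limma, n = 3 and 3 resident and 2 and 2 BMDM libraries), as it did for 41.8% of all tested genes. On the log2 scale it was -2.62 for Fcgr1 (95% interval -2.94 to -2.29), -2.67 for Fcgr4 (-2.99 to -2.35) and -3.10 for Fcgr2b (-3.66 to -2.54). Fcgr1 is also the member whose called changes have opposite signs, -0.57 in resident macrophages and 2.05 in BMDM. For Fcgr3 the difference was -0.59 (-0.99 to -0.19), and for Fcer1g -0.71 (-1.25 to -0.16). These lost the call or the sign in 9 and 11 of 22 other settings, and Fcgr3 was 0.25 with quantile normalization. The summed macrophage markers were 245384 to 320530 in LPS-treated and 279591 to 410343 in untreated resident libraries, with 0 of 12 called. Their median log2 change with LPS there was -0.26, from -0.63 for C1qa (adjusted p = 0.0594 by limma) to -0.01 for Adgre1. The part of these markers in the difference was not tested.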

How the results depend on the processing

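Fcgr1, Fcgr2b and Fcgr4 kept their direction and call for LPS in BMDM and for the difference of responses in every setting run. Fcgr1 and Fcgr2b also did so for LPS in resident macrophages. The size of the BMDM rise varied, from 1.19 to 2.06 for Fcgr1, 2.45 to 3.09 for Fcgr4 and 3.52 to 4.18 for Fcgr2b. Over all members, contrasts and settings, 522 values kept direction and side of the threshold, 29 lost the call, 8 gained it and 11 reversed. Against the deposited scale, equal library totals moved the median of all genes to -0.12 for LPS in resident macrophages, -0.64 for LPS in BMDM, 0.35 between LPS-treated origins and 0.48 for the difference of responses. The share of higher calls was then 27.1% against 56.9%, 21.7% against 49.0%, 68.2% against 51.5% and 75.2% against 45.5%, and quantile normalization gave 41.5% against 54.6% between untreated origins and 56.9% against 45.5% for the difference. With equal library totals Fcer1g in resident macrophages was -0.0564 and Fcgr3 in BMDM -0.11, and voom also gave -0.0564 and -0.11. With quantile normalization Fcer1g was -0.067 in resident macrophages and -0.0588 in BMDM, and Fcgr3 was -0.39 in BMDM (adjusted p = 0.0203 by limma) and 0.25 for the difference. Leaving out 1 library at a time gave Fcer1g between -0.0858 and 0.21 for LPS in resident macrophages. For untreated resident against BMDM it gave Fcer1g between -0.18 and 0.0754. Over all settings this second difference reached -0.39, with a lowest adjusted p of 0.0118 by limma, so a call was gained. Fcgr4 between untreated origins gained a call in 7 settings. Of the named genes of the lists, each followed only in the contrasts it was named for, 3700 values kept direction and side of the threshold and 150 lost the call.

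The number of genes called for LPS in resident macrophages was 1779. It was 529 with only the resident libraries, 2840 without both resident libraries with Y-linked transcripts, and 970 to 2287 without 1 library at a time (970 without LPS replicate 2, 1185 without untreated replicate 3). The cause was not tested. The ratio, as log2 differences, depended on how activating receptors were combined. Their geometric mean gave -2.26 for LPS in BMDM, -0.69 between untreated origins and 1.14 for the difference of responses. Fcgr3 and Fcgr4 over Fcgr2b gave -3.05 for LPS in BMDM, 0.77 between LPS-treated origins and 2.10 for the difference. Fcgr3 alone over Fcgr2b gave -3.63, -1.72 between untreated origins, 0.79 between LPS-treated origins and 2.51. These kept the sign of the summed ratio, whereas Fcgr1 alone over Fcgr2b was -0.16 between LPS-treated origins and Fcgr4 alone over Fcgr2b 0.30 between untreated origins, opposite to the sum. Tests by edgeR and DESeq2 were not run, and voom, the transcript length and the replicate block were chosen after seeing the data. The replicate numbers are in accession order and the labels pair no libraries. The deviations of same-numbered resident libraries from their group means correlated across 13755 genes at 0.60, 0.51 and 0.36, and each library correlated best with its own number, a hint from the data and not the design. With this number as a replicate block in the resident groups, 4241 genes were called for LPS in resident macrophages. Among the members the block changed only the call of Fcgr4 between untreated origins (-0.24, adjusted p = 0.0315 by limma).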
